A study of Mus musculus with 16 samples.

Results

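The 10 genes described here encode the erasers and the main readers of N6-methyladenosine (m6A), the methyl mark on adenosines inside messenger RNA. They are Fto, Alkbh5, Ythdf1, Ythdf2, Ythdf3, Ythdc1, Ythdc2, Igf2bp2, Hnrnpa2b1 and Hnrnpc. They were chosen by name, with earlier results of these data known, and each matched 1 of the 78317 gene identifiers in the deposited tables. All 10 passed the filter on low counts, among 14781 genes tested. RNA was measured in livers of wild-type C57BL/6J mice, an inbred laboratory strain, in 4 groups of 4: females on normal diet, females on high fat diet, males on normal diet and males on high fat diet. All mice came at 6 weeks of age and then ate their diet for 10 weeks, a chow with 4.5% of its calories from fat or a purified diet with 60%. The diets came from different makers and so can differ in more than fat. The libraries were made from poly(A) RNA of whole liver powder, all carry batch number 1, and hold from 22228115 to 41420589 expected counts each. The series title concerns m6A, but the tables hold RNA levels of these genes and no measurement of m6A, of protein or of enzyme activity.

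In textbook accounts, m6A is placed by a nuclear methyltransferase complex, removed by the oxygenases FTO and ALKBH5, and read by proteins that bind the methylated base or an RNA structure opened by it. YTHDF1, YTHDF2 and YTHDF3 are closely related cytoplasmic readers that act on translation and decay, and YTHDC1 is the nuclear YTH reader, tied to splicing and export. YTHDC2 carries a YTH domain and an RNA helicase and is best known from the germ line. IGF2BP2 binds and stabilises target messages. HNRNPA2B1 and HNRNPC are abundant nuclear RNA-binding proteins that meet m6A through RNA structure more than by a YTH pocket. Liver deletion or overexpression of several of these genes is known to alter hepatic lipid handling.

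Before the results, some features of the libraries need stating. Male high fat diet replicates 2 and 3 were far closer to each other than any other pair, with a chi-square statistic of 4 per gene against 20.7 to 307 for the other 23 pairs within groups. The labels list them as separate samples and they were counted so, and values with them averaged, or both left out, are given where they change a call. The largest distances were in the same group. Its replicate 1 stood 304 and 307 from replicates 2 and 3, and its replicate 4 stood 155 and 157 from them. Replicates 1 and 4 were 54.4 apart. Female high fat diet replicate 1 stood 76.3 to 94.8 from the others of its group, which were 20.7 to 47.9 from each other. Male normal diet replicate 2 stood 95.8, 45.8 and 93.6 from replicates 1, 3 and 4. The hepatocyte markers Alb and Apoa1 were at 37600 and 3700 CPM (counts scaled to a common library size) or more in every library, as the liver label requires. Summed over the 7 hepatocyte markers that were found, levels were 106400 to 120400 CPM in females on normal diet and 83820 to 101600 CPM on high fat diet. In males they were 86070 to 100100 and 62100 to 77770 CPM. Summed Kupffer cell and macrophage markers (7 of 7 found) were 264.1 to 380.0 and 440.2 to 605.2 CPM in females on normal and high fat diet, and 247.2 to 349.5 and 218.1 to 423.8 CPM in males. Stellate cell and fibroblast markers (6 of 6) did not overlap between the sexes on normal diet, at 320.1 to 330.3 CPM in females and 216.7 to 259.5 CPM in males. Sinusoidal endothelium markers (5 of 5) did not overlap there either, at 120.7 to 141.3 and 105.4 to 117.7 CPM. On high fat diet both lists overlapped between the sexes, and hepatocyte and Kupffer sums were higher in all 4 females than in all 4 males. Over all 16 libraries, T and B cell markers summed to 1.68 to 8.63 CPM, cholangiocyte markers to 46.87 to 89.95 CPM and red blood cell markers to 221.9 to 555.7 CPM. In whole liver, fewer cells of a type and less RNA per cell cannot be told apart, and whether cell makeup moved the genes below was not tested.

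On TPM, which divides by transcript length and so allows levels of different genes to be compared, the 10 genes spanned a wide range in an order that most libraries shared. Hnrnpa2b1 was highest with a mean of 304.9 TPM (SD 37.3, n = 16 libraries), at the 97.5th percentile of tested genes, followed by Hnrnpc with 74.5 TPM. Ythdf3 had 30.1 TPM, Alkbh5 20.1, Ythdc1 15.6, Ythdf1 14.5, Fto 11.4 and Ythdf2 8.25 TPM. Ythdc2 with 2.05 TPM and Igf2bp2 with 0.458 TPM were lowest, at the 35.5th and 13.1th percentiles. Every one of the 16 libraries placed Hnrnpa2b1 above Hnrnpc, Hnrnpc above Ythdf3, Ythdf3 above Alkbh5, Alkbh5 above Ythdc1, Fto above Ythdf2, Ythdf2 above Ythdc2 and Ythdc2 above Igf2bp2. Ythdc1 and Ythdf1 were neighbours whose ranges overlapped in all 4 groups, and Ythdc1 was the higher in 11 of 16 libraries. Ythdf1 and Fto overlapped in both high fat diet groups. Among the 3 YTHDF paralogs, Ythdf3 held 56.9% of the summed TPM (SD 3.17, n = 16), Ythdf1 27.4% and Ythdf2 15.7%. Of the erasers, Alkbh5 had 1.77 times the TPM of Fto (SD 0.244), with a range of 1.42 to 2.36 over the libraries.

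**Figure D1:**
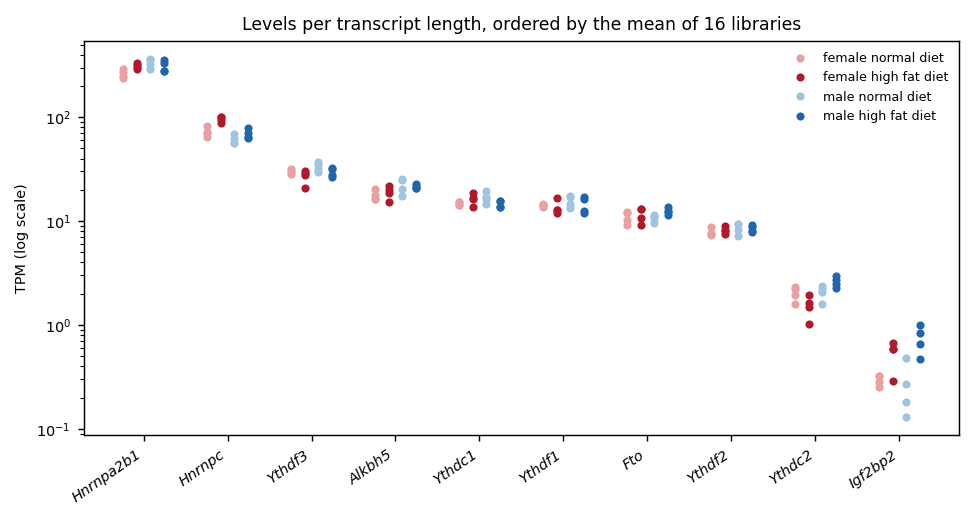
TPM of the 10 genes (log axis) in each of the 16 libraries, coloured by group and ordered by mean; each point is a library. Hnrnpa2b1 lies near 304.9 TPM and Igf2bp2 near 0.458 TPM, and the order of genes is nearly the same in all 4 groups.

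To show the regulatory sequence of members that were called or whose groups did not overlap in some comparison, the 250 bases before the start site are printed where RefSeq (GRCm38.p6) has an entry and no exon of GENCODE M21 lies in the window. Of the 10 genes, 8 have an entry in the promoter table, and Ythdf3 and Ythdc2 have none. Capitals mark matches, on either strand, to the STAT5 motif TTCNNNGAA, the E-box CACGTG, the cAMP response element TGACGTCA, the CCAAT box and the GC box GGGCGG. STAT5 is the factor through which pulsatile growth hormone sets many sex differences of mouse liver, and the E-box is bound by clock factors.
Alkbh5 (chr11:60537433-60537682, plus strand): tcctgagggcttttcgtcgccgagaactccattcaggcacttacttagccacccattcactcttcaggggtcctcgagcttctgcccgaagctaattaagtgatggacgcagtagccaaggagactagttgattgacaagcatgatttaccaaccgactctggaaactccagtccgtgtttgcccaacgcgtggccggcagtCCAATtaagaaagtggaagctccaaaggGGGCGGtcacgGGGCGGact
Fto (chr8:91313275-91313524, plus strand): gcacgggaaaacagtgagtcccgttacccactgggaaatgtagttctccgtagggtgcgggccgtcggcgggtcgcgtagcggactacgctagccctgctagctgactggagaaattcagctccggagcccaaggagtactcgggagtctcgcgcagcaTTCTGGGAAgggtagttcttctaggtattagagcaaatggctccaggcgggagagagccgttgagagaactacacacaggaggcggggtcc
Hnrnpa2b1 (chr6:51469895-51470144, minus strand): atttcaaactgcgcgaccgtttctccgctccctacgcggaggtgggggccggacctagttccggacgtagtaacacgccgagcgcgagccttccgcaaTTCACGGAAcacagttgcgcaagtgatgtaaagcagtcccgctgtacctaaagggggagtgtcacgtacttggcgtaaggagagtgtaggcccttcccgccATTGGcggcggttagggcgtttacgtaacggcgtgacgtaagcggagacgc
Igf2bp2 (chr16:22163300-22163549, minus strand): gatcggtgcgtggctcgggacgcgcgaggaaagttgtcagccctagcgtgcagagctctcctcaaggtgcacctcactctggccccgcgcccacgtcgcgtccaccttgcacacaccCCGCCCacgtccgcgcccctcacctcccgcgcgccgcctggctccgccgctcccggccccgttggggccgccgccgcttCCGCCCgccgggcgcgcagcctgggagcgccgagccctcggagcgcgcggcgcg
The Hnrnpa2b1 window holds the STAT5 match TTCACGGAA at -152 from the start and a CCAAT box on the other strand at -51. From another listed start of this gene, whose window holds an exon and is not printed, the same matches lie at -201 and -100. The Fto window holds the STAT5 match TTCTGGGAA at -91. Alkbh5 has a CCAAT box at -48 and GC boxes at -20 and -9, and Igf2bp2 has GC boxes on the other strand at -133 and -54. Over all 32851 windows of the same length, 7.02% hold the STAT5 motif, 6.02% the E-box, 1.55% the cAMP response element, 33.8% a CCAAT box and 32.7% a GC box. The CCAAT box can overlap other motifs, and these matches are letters in a window, with no binding measured.

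The series asks what high fat diet does to liver RNA in females and in males, and the erasers come first. Fto, the first m6A demethylase described and a gene tied to body weight in human genetics, had 28.2, 31.4, 31.7 and 35.5 CPM in females on normal diet (replicates 1 to 4) and 22.8, 32.0, 28.0 and 30.8 CPM on high fat diet. In males it had 30.4, 32.0, 31.7 and 31.8 CPM on normal diet and 38.0, 34.4, 32.7 and 33.9 CPM on high fat diet. The female groups overlapped, while all 4 male high fat diet libraries lay above all 4 on normal diet. Neither diet difference passed the test: the log2 fold change was -0.16 ± 0.10 (SE; adjusted p = 0.334) in females and 0.14 ± 0.10 (adjusted p = 0.398) in males. The 95% intervals ran from -0.38 to 0.06 and from -0.07 to 0.36 on the log2 scale. Alkbh5, the other demethylase, differed between diets by -0.15 ± 0.12 in females (95% interval -0.40 to 0.09) and -0.11 ± 0.12 in males (-0.36 to 0.13), with adjusted p of 0.432 and 0.578. On TPM the female differences of both erasers had the opposite sign, 0.08 for each on log2(TPM + 0.1).

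Ythdc2 and Ythdf3 fell in females on high fat diet, and no other of the 10 genes passed the test there. The count of 2 in 10, both lower, stands beside 11.5% of all tested genes called in this comparison, 5.74% higher and 5.76% lower. The median log2 fold change of the 10 was -0.14, against 0.00 over all tested genes. In this comparison 3 of 7 Kupffer cell and macrophage markers and 2 of 6 stellate markers were called higher, and 1 of 7 hepatocyte markers lower. The part of these markers in the 2 falls was not tested.

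Ythdc2 had 10.3, 12.8, 13.3 and 13.5 CPM in females on normal diet and 5.43, 10.1, 9.04 and 7.37 CPM on high fat diet. The groups did not overlap, and replicate 1 was the lowest library in each. The log2 fold change was -0.64 ± 0.16 (SE; 95% interval -0.99 to -0.30; edgeR adjusted p = 0.0163). Leaving out replicate 4 of either female group moved the adjusted p just past the threshold, to 0.0530 (-0.59) for the normal diet library and 0.0542 (-0.61) for the high fat diet library. On log2(TPM + 0.1) it was -0.40 and not called (adjusted p = 0.144), in a scale whose median over all genes in this comparison was 0.22. Counted against Ythdc1 within each library, a ratio that no library scaling touches, Ythdc2 had 25.5, 33.4, 38.2 and 38.7 counts per 100 Ythdc1 counts on normal diet and 18.7, 29.2, 24.3 and 19.7 on high fat diet. These overlap, through normal diet replicate 1. Against Hnrnpc the ratios were 9.38 to 13.4 and 4.48 to 8.69 counts per 100, with no overlap.

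Ythdf3, the most abundant YTHDF paralog here, had 128.3, 141.2, 115.1 and 129.3 CPM in females on normal diet and 75.0, 108.7, 109.1 and 95.5 CPM on high fat diet, without overlap. Its log2 fold change was -0.40 ± 0.12 (SE; 95% interval -0.65 to -0.15; adjusted p = 0.0352). The call rested on several libraries: it was lost without normal diet replicates 1, 2 or 4 (adjusted p = 0.0793, 0.118 and 0.0820) and without high fat diet replicates 1 or 4 (0.0813 and 0.0865). Without high fat diet replicate 1, the lowest library, the log2 fold change was -0.30. With only the 2 groups compared the adjusted p was 0.0649, without a filter 0.0635, and on log2(TPM + 0.1) the difference was -0.17 (adjusted p = 0.331).

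The other YTHDF paralogs lay on the same side in females without passing the test. Ythdf1 had a mean of 36.7 ± 1.80 CPM (SD, n = 4) on normal diet and 29.7 ± 4.72 CPM on high fat diet, a log2 fold change of -0.31 ± 0.13 (adjusted p = 0.123), and was called only without high fat diet replicate 2 (-0.42, adjusted p = 0.0408). Ythdf2, the paralog that recruits the CCR4-NOT deadenylase to methylated messages, differed by -0.12 ± 0.11 (95% interval -0.34 to 0.11; adjusted p = 0.506), and on log2(TPM + 0.1) by 0.07. The nuclear reader Ythdc1 differed by -0.10 ± 0.10 (95% interval -0.31 to 0.10; adjusted p = 0.536), and by 0.13 on that scale. Hnrnpa2b1 had 311.2 ± 22.3 CPM against 312.9 ± 23.8 CPM (SD, n = 4), with a 95% interval of -0.21 to 0.23 on the log2 scale, and 0.25 on log2(TPM + 0.1). Hnrnpc had 110.2, 102.1, 112.0 and 101.1 CPM on normal diet and 121.2, 116.8, 117.7 and 110.4 CPM on high fat diet, a difference of 0.13 ± 0.08 (adjusted p = 0.314) with 1 library of each group crossing. On log2(TPM + 0.1) the Hnrnpc difference was 0.40 and was called (adjusted p = 0.0147), so which members were called in females depended on the scaling. Igf2bp2 had 0.852, 1.07, 0.878 and 0.835 CPM on normal diet and 0.785, 1.78, 1.68 and 1.49 CPM on high fat diet. The first high fat diet library was the lowest of all 8 and the other 3 were above every normal diet library, with a log2 fold change of 0.65 ± 0.36 (adjusted p = 0.253).

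**Figure D2:**
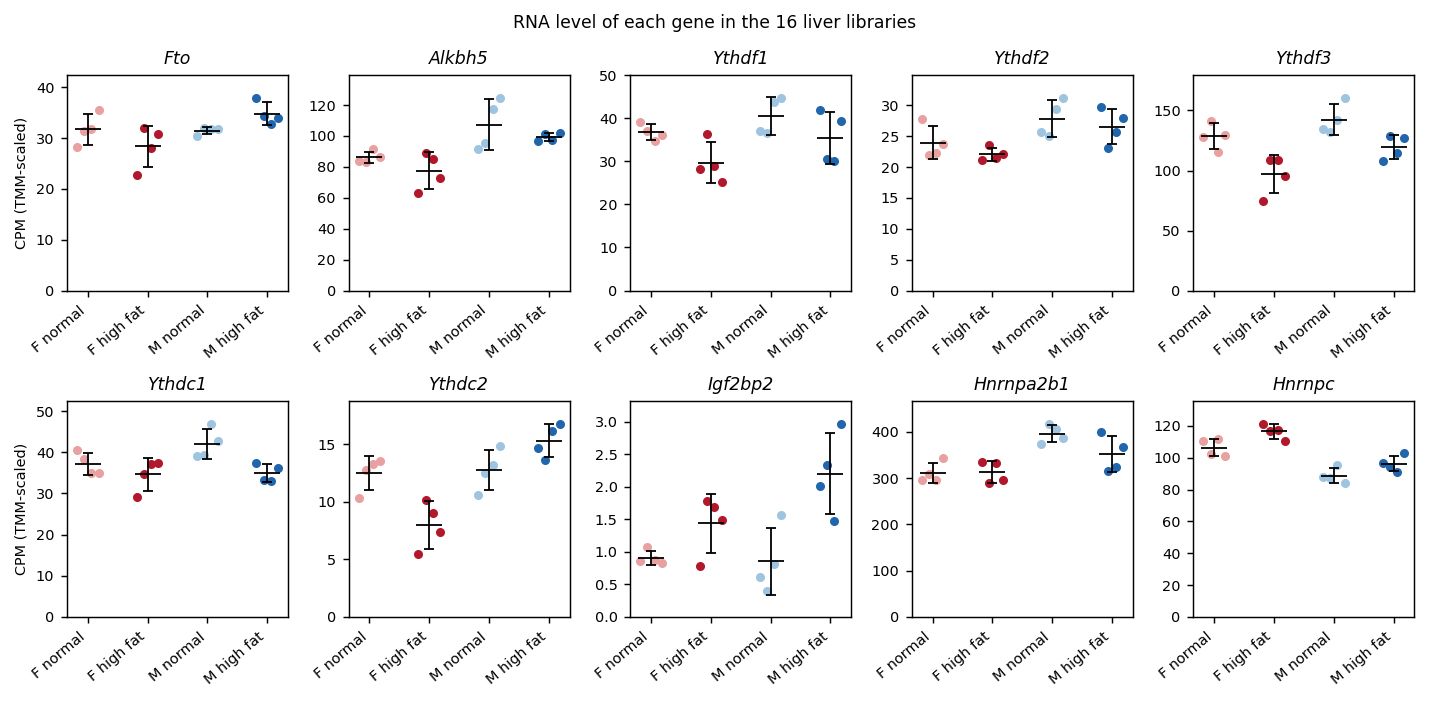
CPM (TMM-scaled, linear axes from 0) of each gene in the 4 groups; points are libraries in replicate order, the horizontal mark is the mean and the bar the SD (n = 4). Ythdc2 in females on high fat diet (5.43 to 10.1 CPM) lies below males on high fat diet (13.6 to 16.8 CPM), and each female group of Hnrnpc lies above the male group on the same diet (101.1 CPM or more against 95.2 CPM or less on normal diet).

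In males, Igf2bp2 rose on high fat diet and was the only one of the 10 called, a count of 1 beside 11.4% of all tested genes (6.03% higher and 5.36% lower). It had 0.617, 0.399, 0.820 and 1.57 CPM on normal diet and 2.01, 2.34, 1.48 and 2.96 CPM on high fat diet. High fat diet replicate 3 lay below normal diet replicate 4, and the other 3 lay above all normal diet libraries. The log2 fold change was 1.34 ± 0.36 (SE; 95% interval 0.59 to 2.10; adjusted p = 0.0218), equal to a 2.54-fold rise. This is the least abundant of the genes, with 14 to 69 expected counts per library. The call was lost without a filter on log2(TPM + 1) (0.0505), without male high fat diet replicates 2 or 4 (adjusted p = 0.0510 and 0.0711), without normal diet replicates 1, 2 or 3 (0.0646, 0.0614 and 0.0561) and with only the 2 groups compared (0.0547), and the log2 fold change stayed between 1.08 and 1.85 when any library was left out. Averaging male high fat diet replicates 2 and 3 gave 1.405 (adjusted p = 0.0288) and dropping both gave 1.52 (adjusted p = 0.0376). In adult liver, Igf2bp2 is the member of its family that persists after birth. Its relatives Igf2bp1 and Igf2bp3 had at most 1 and 4.22 expected counts in any library and were not tested. In these male groups, summed stellate cell and fibroblast markers (6 of 6 found) were 216.7 to 259.5 CPM on normal diet. On high fat diet they were 273.4 to 391.0 CPM, without overlap, though none (0) of the 6 was called singly. Adipocyte markers (4 of 4) were 0.685 to 1.84 and 0.966 to 10.9 CPM, and pancreatic acinar markers (5 of 5) were 5.02 to 14.5 and 12.3 to 32.6 CPM. Both of these sums overlapped between the diets. Singly, 1 of 2 tested adipocyte markers was called higher, and 0 of 1 tested acinar marker. Cfd, in the adipocyte sum, ran from 0 to 10.16 CPM over all libraries. The part of these markers in the Igf2bp2 rise was not tested.

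The YTH readers did not pass the test in males. Ythdf3 had 135.0, 131.8, 141.9 and 160.7 CPM on normal diet and 108.3, 129.0, 114.5 and 127.5 CPM on high fat diet, without overlap, and a log2 fold change of -0.25 ± 0.12 (adjusted p = 0.184). Ythdc1 had 39.0, 39.3, 46.9 and 42.8 CPM on normal diet and 37.3, 33.1, 33.1 and 36.2 CPM on high fat diet, again without overlap, and differed by -0.27 ± 0.10 (adjusted p = 0.0894). It was called when female high fat diet replicate 1 was left out of the shared fit (adjusted p = 0.0454). With Fto, these made 3 of 10 genes whose male diet groups did not overlap, beside 18.5% of all tested genes. In females the count was 2 of 10, beside 18.3%. Ythdc2, which fell in females, had 10.6, 12.5, 13.2 and 14.9 CPM in males on normal diet and 14.7, 13.6, 16.2 and 16.8 CPM on high fat diet, an overlapping difference of 0.26 ± 0.16 (95% interval -0.08 to 0.59; adjusted p = 0.311). The remaining 4 genes, Ythdf1, Ythdf2, Hnrnpa2b1 and Hnrnpc, differed by -0.19, -0.07, -0.17 and 0.12, with standard errors of 0.08 to 0.13.

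Whether the diet acted differently in the sexes was tested by the interaction, the female change minus the male change. None of the 10 genes (0) passed the edgeR test after adjustment, 1 had an unadjusted p under 0.05, and 0.677% of all tested genes were called (0.264% positive and 0.413% negative). DESeq2 called 1 of the 10, beside 341 of all 14781 tested genes. In both tools the gene was Ythdc2, with an interaction of -0.90 ± 0.23 (SE; 95% interval -1.38 to -0.43) and an edgeR adjusted p of 0.0817. Its adjusted p fell under 0.05 with DESeq2 (0.0181), without a filter on low counts (0.0353), with the replicate numbers as a block (0.0388) and without female high fat diet replicate 2 (0.0402). It ranged from 0.0181 to 0.374 over 25 alternatives. In all of them the interaction was negative, from -1.04 to -0.50. Fto followed with -0.30 ± 0.15 (adjusted p = 0.390). For Igf2bp2 the interaction was -0.69 ± 0.51 (95% interval -1.76 to 0.37), so the rise called in males is not shown to differ from the female value. The same holds for Ythdf3, -0.16 ± 0.17 (adjusted p = 0.747).

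Comparing the sexes on high fat diet gave the clearest result among the 10 genes. Ythdc2 was lower in females than in males, Alkbh5 was also lower, and Hnrnpc was higher. These 3 of 10 stand beside 20.4% of all tested genes called in this comparison (8.84% higher and 11.6% lower in females). Of the 10 genes, 9 had a negative log2 difference, with a median of -0.28 against -0.01 over all tested genes. Ythdc1 is among the 9 by -0.01 and was above 0 under other scalings, and Hnrnpa2b1 was at 0.01 on log2(TPM + 0.1). A lean to negative values was not particular to the 10, as lists of related genes, described further below, showed. Negative were 8 of 9 writers (median -0.08), 7 of 8 other proposed readers (-0.15) and 10 of 13 partners that readers recruit (-0.12). So were 16 of 20 other hnRNP genes (-0.06), but only 3 of 7 other AlkB homologs (0.06). The female high fat diet libraries also enter the female diet comparison above, so the comparisons share samples.

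For Ythdc2 the values were 5.43, 10.1, 9.04 and 7.37 CPM in females and 14.7, 13.6, 16.2 and 16.8 CPM in males, all on high fat diet. The groups were far apart, with the highest female library at 10.1 CPM and the lowest male library at 13.6 CPM. The log2 difference was -0.94 ± 0.16 (SE; 95% interval -1.28 to -0.60; adjusted p = 0.000819), so females had 0.522 times the male level (95% interval 0.412 to 0.662). It was called under all 26 alternatives that were run, with log2 differences from -1.08 to -0.52 and adjusted p from 4.38e-06 to 0.0202. With male high fat diet replicates 2 and 3 both left out it was also called. In the ratio to Ythdc1, females on high fat diet had 18.7 to 29.2 counts per 100 and males 39.4 to 48.9, and on TPM the levels were 1.53 ± 0.387 and 2.60 ± 0.277 (SD, n = 4). On normal diet the same gene showed no such gap: 12.5 ± 1.47 CPM in females and 12.8 ± 1.77 CPM in males, a log2 difference of -0.03 ± 0.16 (95% interval -0.37 to 0.30; adjusted p = 0.914). The change of the sex difference between the diets is the interaction given above.

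Alkbh5 had 63.2, 89.1, 85.3 and 72.7 CPM in females and 96.9, 101.4, 97.4 and 101.9 CPM in males on high fat diet. No libraries overlapped, and the female values were the more spread, with an SD of 11.8 CPM against 2.61 CPM. The log2 difference was -0.36 ± 0.12 (adjusted p = 0.0374). The difference was also present on normal diet without passing the test, -0.32 ± 0.12 (adjusted p = 0.0709), where females had 83.8, 83.0, 91.5 and 86.2 CPM and males 91.6, 95.4, 117.7 and 124.8 CPM, again without overlap. It was called on normal diet without female high fat diet replicate 1 (adjusted p = 0.0380) or male normal diet replicate 1 (-0.38, adjusted p = 0.0352). On high fat diet the call was near the threshold and was lost for 10 of the 16 libraries when each was dropped. The adjusted p was 0.110 and 0.0975 without female high fat diet replicates 1 and 4, and 0.0701, 0.0745, 0.0599 and 0.0854 without male high fat diet replicates 1 to 4. Dropping libraries outside the comparison, which changes the genes tested, their scaling and the shared spread, moved it too: 0.0604, 0.0640 and 0.0634 without female normal diet replicates 1, 2 and 4, and 0.0531 without male normal diet replicate 2. Averaging replicates 2 and 3 of the male high fat diet group gave 0.0677, dropping both gave 0.108, a fit of only the 2 groups 0.0843, no filter 0.0929 and log2(TPM + 0.1) 0.289.

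Hnrnpc was higher in females under both diets, as were the summed hepatocyte markers. On normal diet the summed stellate and endothelial markers given above were higher too. Singly, 1 of 7 hepatocyte, 2 of 6 stellate, 1 of 5 endothelial and 1 of 5 T and B cell markers were called higher on normal diet. Called lower there were 1 of 5 each of T and B cell, cholangiocyte and red blood cell markers. On high fat diet 2 of 7 hepatocyte, 5 of 7 Kupffer cell and macrophage, 2 of 5 cholangiocyte and 1 of 5 endothelial markers were called higher. Called lower on high fat diet were 1 of 5 each of T and B cell, cholangiocyte and red blood cell markers, and 1 of 2 adipocyte markers. Alb, which enters the hepatocyte sum, spanned 37600 to 96130 CPM over the libraries. The part of these markers in the Hnrnpc difference was not tested. On normal diet females had 110.2, 102.1, 112.0 and 101.1 CPM and males 87.6, 87.5, 95.2 and 84.2 CPM, and on high fat diet females had 121.2, 116.8, 117.7 and 110.4 CPM and males 96.7, 94.5, 91.2 and 102.9 CPM. Neither pair of groups overlapped. The log2 differences were 0.26 ± 0.08 (95% interval 0.09 to 0.43; adjusted p = 0.0358) and 0.27 ± 0.08 (0.10 to 0.45; adjusted p = 0.0243), an increase of 20.0% and 21.0%. The high fat diet call was lost without male high fat diet replicate 2 or 3 (adjusted p = 0.0567 and 0.0503), with both left out (0.145), with only the 2 groups compared (0.0648) and without a filter (0.121), and stood on log2(TPM + 0.1) with a difference of 0.47. The normal diet call was lost without female replicates 1, 2 or 3 (0.0803, 0.0546 and 0.0749) and without male replicates 1, 2 or 4 (0.0513, 0.0715 and 0.0925). It was also lost without a filter (0.168) and on log2(TPM + 0.1) (0.116). In GENCODE M21, 8.78% of the 50-base stretches of coding Hnrnpc transcripts also occur in other genes, both of them pseudogenes, so part of its reads can be shared.

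Hnrnpa2b1, the most abundant of the set, was lower in females on normal diet. Females had 295.2, 310.0, 296.5 and 343.2 CPM and males 374.6, 417.2, 405.9 and 387.4 CPM, with no overlap and a log2 difference of -0.35 ± 0.10 (95% interval -0.57 to -0.13; adjusted p = 0.0292). With Hnrnpc it made 2 called genes of 10 on normal diet, beside 15.7% of all tested genes (7.03% higher and 8.68% lower in females). Libraries did not overlap for 3 of 10 genes, Alkbh5, Hnrnpa2b1 and Hnrnpc, beside 22%. On high fat diet, Hnrnpa2b1 had 334.7, 289.4, 332.2 and 295.4 CPM in females and 400.0, 316.3, 323.6 and 366.5 CPM in males. The groups overlapped there, and the log2 difference was -0.17 ± 0.10 (adjusted p = 0.259). The normal diet call was lost without female replicates 1, 2 or 3 (0.0877, 0.0801 and 0.0793), without male replicates 2, 3 or 4 (0.0791, 0.0781 and 0.0589) and without a filter (0.129). That the sex difference itself changed with diet was not called, since the interaction was 0.18 ± 0.15 (adjusted p = 0.652).

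**Figure D3:**
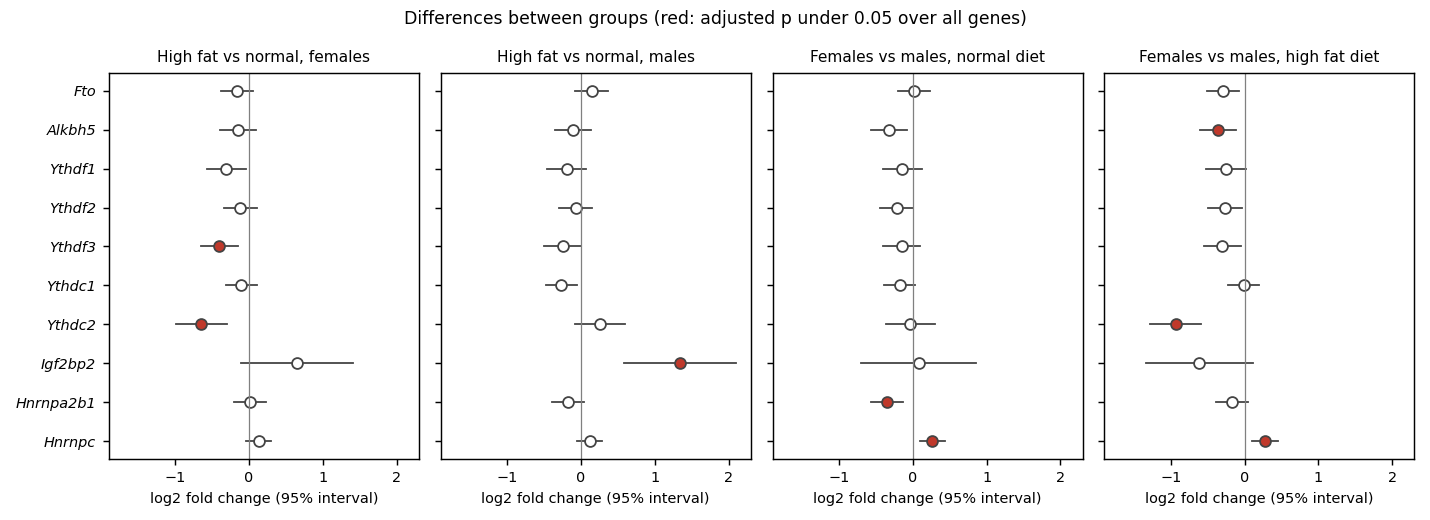
Log2 fold changes (points) with 95% intervals (lines) of the 10 genes in 4 comparisons, from the edgeR fit to all 16 libraries; red points passed an adjusted p of 0.05 over all 14781 genes. Ythdc2 at -0.94 in the sex comparison on high fat diet is farthest from 0 among the called sex differences, and Igf2bp2 has the widest intervals.

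The remaining sex differences did not pass the test. Fto was all but equal on normal diet, 0.01 ± 0.10 (95% interval -0.21 to 0.23), and lower in females on high fat diet by a log2 difference of -0.29 ± 0.10 (adjusted p = 0.0543). The 4 female libraries at 22.8 to 32.0 CPM all lay below the 4 male ones at 32.7 to 38.0 CPM, which made Fto the fourth gene without overlap on high fat diet, 4 of 10 beside 22.7% of all tested genes. GENCODE M21 annotates 2 genes on the other strand over part of its exons. Of the 50-base stretches of its coding transcripts, 2.41% occur on either strand in at least 1 of 4 other genes. Reads from that part may be shared, since the sources do not say whether strand was used. With the replicate numbers as a block Fto was called (adjusted p = 0.0393), as was Ythdf3 (0.0496). The count on high fat diet rose from 3 to 5, while calls over all 14781 genes rose from 3021 to 3445. Ythdf1, Ythdf2 and Ythdf3 were lower in females on high fat diet by -0.26 ± 0.13, -0.27 ± 0.11 and -0.30 ± 0.12, with adjusted p of 0.160, 0.0842 and 0.0772. With male high fat diet replicates 2 and 3 both dropped, Ythdf1 (-0.45, adjusted p = 0.0317) and Ythdf2 (-0.38, adjusted p = 0.0463) were called. Dropping female high fat diet replicate 2 gave calls for Fto (-0.35, adjusted p = 0.0320) and Ythdf1 (-0.37, adjusted p = 0.0479). On normal diet the 3 paralogs differed by -0.14, -0.22 and -0.15. Ythdc1 differed by -0.18 ± 0.10 on normal diet and by -0.01 ± 0.10 on high fat diet. Igf2bp2 differed by 0.08 ± 0.37 on normal diet and by -0.61 ± 0.35 on high fat diet (95% interval -1.34 to 0.12; adjusted p = 0.218), an interval that spans 0.394 to 1.08 times the male level.

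Because TPM and TMM-scaled counts treat the library total differently, the scales were set side by side. In females the median over all tested genes was 0.22 on log2(TPM + 0.1) and 0.00 with TMM in the diet comparison, and in the sex comparison on high fat diet it was 0.15 and -0.01. Of the calls of all genes, 848 were higher and 852 lower on high fat diet in females with TMM, against 2487 and 276 on log2(TPM + 0.1). Between the sexes on high fat diet, 1306 were higher and 1715 lower in females, against 2808 and 737. Ythdc2 had the most negative difference of the 10 genes on both scales in both comparisons, and Hnrnpc stayed above 0 on both. Relative to the median of its scale, Ythdc2 in the sex comparison on high fat diet was at -0.93 with TMM and -0.91 on log2(TPM + 0.1), and Alkbh5 was at -0.35 on each.

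**Figure D4:**
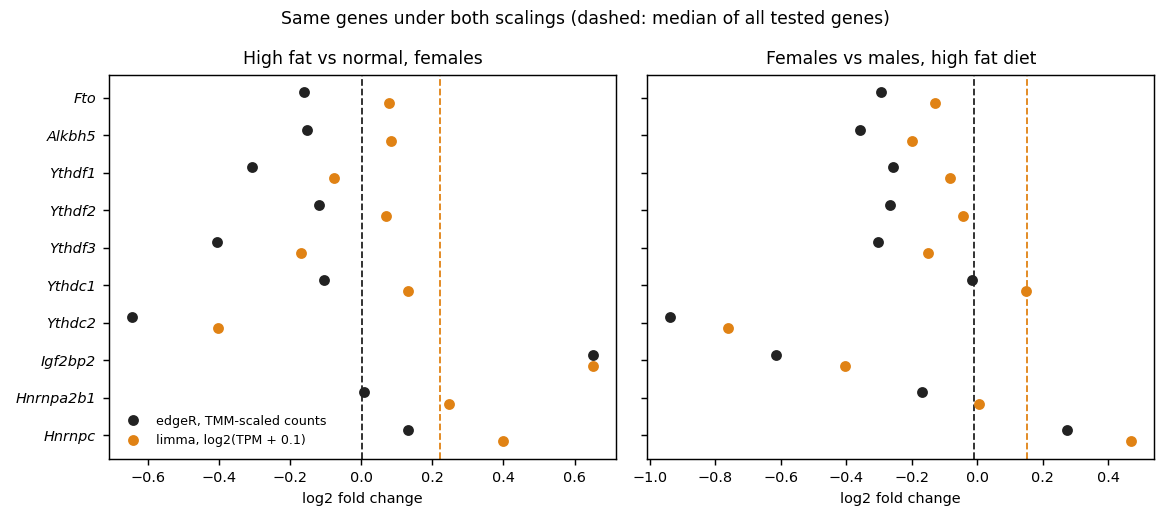
Log2 fold changes of the 10 genes for diet in females and for sex on high fat diet, from edgeR on TMM-scaled counts (black) and limma on log2(TPM + 0.1) (orange); dashed lines are the medians of all tested genes. The orange points sit to the right of the black ones by about the distance between the medians, which in females are 0.00 and 0.22, with Igf2bp2 an exception in females.

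Expected counts and TPM of the same gene also hold a readout that the rule did not use. Their ratio is proportional to the average transcript length that RSEM assigned to the gene in that library, once a library factor is removed, here taken from 2256 genes with a single listed transcript. For single-transcript genes the value must be constant, and for Alkbh5 and Ythdc2 it stayed between 99.5% and 100.5% of the gene's mean in all libraries. Fto, Ythdf1, Ythdf3, Ythdc1 and Hnrnpa2b1 have 2 to 5 listed transcripts and stayed between 98.6% and 101.3%. Their average transcript length was thus nearly the same in every group. A shift between transcripts of like length would not show in this value. Ythdf2, Hnrnpc and Igf2bp2 varied more. Igf2bp2, with 2 listed transcripts, ranged from 93.3% to 102.8%, but its TPM near 0.458 is deposited with few digits and makes the ratio imprecise. Ythdf2, with 2 listed transcripts, ranged from 87.2% to 104.1% within females on normal diet alone and from 96.9% to 106.8% in males on high fat diet. Hnrnpc, with 7, ranged from 93.2% to 103.5% in females on high fat diet and from 97.2% to 105.2% in males on high fat diet. Group means for Ythdf2 ran from 96.1% in females on normal diet to 103.3% in males on high fat diet, and the groups overlapped. In GENCODE M21, 8.36% of the 50-base stretches of coding Ythdf2 transcripts also occur in 2 pseudogenes, 17.5% of those of Ythdc1 in 1 overlapping noncoding gene, and none (0) of those of Ythdf1, Ythdf3, Ythdc2 and Igf2bp2 in any other gene. The paralogs Ythdf1, Ythdf2 and Ythdf3 therefore share no stretch of 50 bases with each other.

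**Figure D5:**
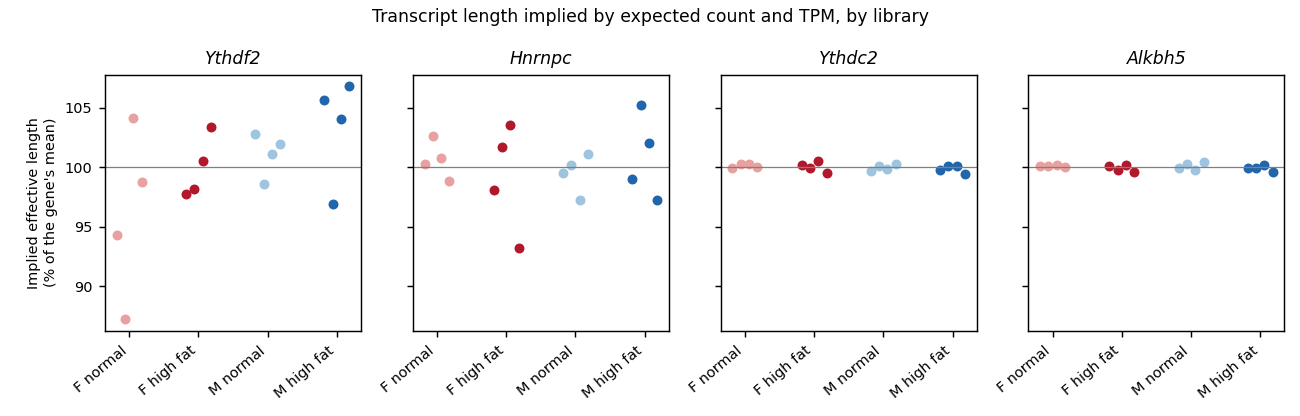
Transcript length implied by the ratio of expected count to TPM, as a percent of each gene's mean over 16 libraries, for 2 genes with several listed transcripts (Ythdf2, Hnrnpc) and 2 with a single one (Ythdc2, Alkbh5); points are libraries in replicate order. Ythdf2 spreads from 87.2% to 106.8%, while Ythdc2 and Alkbh5 stay within 99.5% to 100.5%.

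The genes most like each called member over the 16 libraries were listed as a description. Alkbh5 was most like Naa15, Ogfod1 and Gxylt1 (Pearson r = 0.965, 0.964 and 0.959 over 16 libraries of log2 CPM). Ythdf3 was most like Acadsb, Golph3 and Ppp4r2 (0.965, 0.958 and 0.953). Ythdc2 was most like Smcr8, Cdc27 and Plcb1 (0.958, 0.949 and 0.932). For Igf2bp2 the closest were 4930556M19Rik, Glul and Mdfic (0.893, 0.885 and 0.878), for Hnrnpa2b1 Pigs, Yars and Zfp207 (0.928, 0.917 and 0.903), and for Hnrnpc Pter, Rad51b and Ggct (0.959, 0.926 and 0.906). The best of about 10781 genes is high by selection alone, and the points share groups and library scaling.

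Genes around the erasers and readers were counted from lists of named genes, chosen with earlier results of these data known. The counts are to be read against the share of all tested genes called. That share was 11.5% for diet in females, 11.4% in males, 15.7% for sex on normal diet and 20.4% for sex on high fat diet. In females on high fat diet, 2 of 9 tested writer genes passed the test (Rbm15 lower, Mettl3 higher). None (0) of 8 other proposed readers did, where 1 had an unadjusted p under 0.05. Of 13 partners that readers recruit, 2 passed (Cnot8 higher, Cnot7 lower), as did 2 of 20 other hnRNP genes (Hnrnpr higher, Hnrnpab lower). No other AlkB homolog (0 of 7) passed, and none had an unadjusted p under 0.05. Cnot8, a deadenylase subunit of the CCR4-NOT complex, rose from 29.4 ± 1.46 to 37.9 ± 1.49 CPM (SD, n = 4) in females, a log2 fold change of 0.37 ± 0.08 (adjusted p = 0.00537), and Cnot7, its paralog, fell by 0.33 ± 0.08 (adjusted p = 0.0182). In males, 1 writer (Rbm15), 2 other readers (Fxr1 and Fxr2), 2 partners (Cnot3 and Nxf1) and 1 AlkB homolog (Alkbh6) were called lower. No gene of these lists was called higher, though 6 of 9 writers had a positive log2 fold change. Of 20 other hnRNP genes, 5 had an unadjusted p under 0.05 without being called (0). Fxr1, an FMRP-family RNA-binding protein, fell from 86.2 ± 5.38 to 63.9 ± 3.41 CPM in males (log2 fold change -0.43 ± 0.09, adjusted p = 0.00590).

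Between the sexes on high fat diet, called genes of these lists were Zc3h13, Xrn1, Hnrnph2 and Syncrip, lower in females, and Cnot8, Rida and Alkbh7, higher in females. Zc3h13, a scaffold of the writer complex, averaged 13.7 ± 1.36 CPM in females against 20.7 ± 4.41 CPM in males (SD, n = 4; log2 difference -0.59 ± 0.14, adjusted p = 0.00759). On normal diet Fxr2, Snd1, Cnot3, Nxf1, Hnrnph2 and Hnrnpm were lower in females, and none (0) of the lists' genes was called higher. Hnrnph2 was lower under both diets, by -0.46 ± 0.13 and -0.51 ± 0.13 (adjusted p = 0.0222 and 0.0100). None (0) of the genes on these lists passed the edgeR test for the interaction, and by list the numbers with an unadjusted p under 0.05 were 1 of 9 writers, 0 of 8 other readers, 2 of 13 partners, 1 of 7 AlkB homologs and 1 of 20 other hnRNP genes.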

How the data were processed

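Poly(A) RNA of 16 livers was sequenced, and the submitters' processing notes name STAR, RSEM and the GRCm39 build, with no versions or annotation given. The authors deposited expected counts per gene, in which RSEM divides reads that fit several genes (4.89% of entries are not whole), and TPM, scaled per effective length to a fixed total per library. A gene name table gave symbols by Ensembl identifier, version removed, for 51487 of 78317 genes, which hold 98.97% of counts. Promoter windows and exon overlaps come from the older GRCm38 build, so printed coordinates are those of the RefSeq promoter windows in that build, not of the counted gene models.

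Counts were rounded, filtered with filterByExpr (14781 genes), scaled by TMM and fitted with the two-sided quasi-likelihood test of edgeR 4.0.16 (R 4.3.3), 1 mean per group over all 16 libraries. Adjusted p-values (Benjamini-Hochberg) cover all 14781 genes, and those under 0.05 were called. SE is the log2 fold change over the square root of F, and intervals use the fit's t distribution. DESeq2 1.42.0 and limma 3.58.1 (on log2 TPM, pseudocounts 1 and 0.1) were alternatives. The code was tested on simulated data. The labels do not say that a replicate number pairs animals across groups. The labels do not state separate housing or litters, so p-values measure the spread between these samples. Hour of tissue collection and strand use are not given in the sources used here. Named genes are the 10 members, up to 3 called genes with the smallest p per list and comparison, and the 3 genes most like each called member. Members, lists and alternatives were chosen with earlier results of these data known. Other marker lists (T and B cells, endothelium, cholangiocytes, red blood cells) were summed in the same way.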

Additional observations from a re-analysis of the deposited data

How the results depend on the processing

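Over the 5 comparisons, 420 values kept their direction and call under settings other than leaving out 1 library, 34 changed sign, 26 lost a call and 10 gained one. Depth limits Igf2bp2 most, at 14 to 69 expected counts per library. The cause was not tested. With only the groups compared, which leaves fewer samples in the fit, 1 member was called for diet in females. In males 0 were called (3 at an unadjusted p under 0.05 in edgeR), and for sex on high fat diet 1. Over all genes, this setting called 1439 of 14009 in females, 1438 of 13908 in males and 1958 of 14143 for sex on high fat diet. Without a filter on low counts 1 was called in females, 1 for the interaction and 1 for sex on high fat diet. For sex on normal diet 0 were called (3 unadjusted). Of 30041 genes, this setting called 1260, 124, 2396 and 1820 in these comparisons, in that order. DESeq2 called 1 for the interaction, beside 341 of all 14781 genes. On log2(TPM + 1) and on log2(TPM + 0.1), 1 was called in females (Hnrnpc) and 1 for sex on normal diet. Of all 14781 genes, log2(TPM + 1) called 2926 and 1750 there, and log2(TPM + 0.1) called 2763 and 1852. On log2(TPM + 1) without a filter 1 was called in females, 0 in males and 0 for sex on normal diet. That setting called 1757, 770 and 1033 of 29991 genes. Leaving out 1 library gave 0 to 3 called members in females, 0 to 2 in males and 0 to 1 for the interaction. For sex it gave 0 to 3 on normal diet and 1 to 5 on high fat diet. Over all 15016 to 15111 genes tested, those fits called 947 to 1874 in females and 1113 to 2043 in males. They called 51 to 176 for the interaction, 1325 to 2766 for sex on normal diet and 1973 to 3062 on high fat diet.

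With replicate numbers as a block, 1 member was called for the interaction (Ythdc2, -0.92) and 5 for sex on high fat diet. Of all 14781 genes, the block called 101 and 3445 in these comparisons. Same-numbered libraries correlated at -0.159 to 0.18 over 24 pairs, and 5 of 16 libraries correlated best with their own number, so the numbers were not taken as pairs.

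Signs changed for differences that were never called. Ythdc1 for sex on high fat diet became 0.011 with only the groups compared, 0.005368 with RLE scaling, 0.004264 without a filter, 0.004897 with DESeq2, 0.1422 on log2(TPM + 1) with or without a filter and 0.1503 on log2(TPM + 0.1). On log2(TPM + 1), with or without a filter, diet in females gave Fto 0.07236, Alkbh5 0.07994, Ythdf2 0.06197 and Ythdc1 0.1256. The interaction gave Alkbh5 0.09786, Ythdf1 0.0445 and Ythdf2 0.08041, and sex on high fat diet gave Hnrnpa2b1 0.006981. On log2(TPM + 0.1) the same values were 0.07777, 0.0836, 0.06896 and 0.1325, then 0.1016, 0.04676 and 0.08885, then 0.007019. With male high fat diet replicates 2 and 3 both left out, an alternative added after seeing the data, diet in males gave Ythdf1 0.0001503 and Ythdf2 0.04613, and the Hnrnpc interaction was -0.03876. Leaving out 1 library, in 16 fits, changed the sign of 30 values (1 gene in 1 comparison and fit), with ranges for diet in females of -0.02505 to 0.07458 (Hnrnpa2b1). For the interaction they were -0.1129 to 0.05122 (Alkbh5), -0.2267 to 0.001064 (Ythdf1), -0.1134 to 0.04991 (Ythdf2) and -0.02473 to 0.0513 (Hnrnpc). For sex on normal diet they were -0.04046 to 0.06999 (Fto), -0.1088 to 0.05333 (Ythdc2) and -0.1673 to 0.5985 (Igf2bp2), and on high fat diet -0.05298 to 0.06348 (Ythdc1).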
